A study of Mus musculus with 32 samples.

Results

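The defensin genes examined here were the 71 protein-coding genes on mouse autosomes whose RefSeq symbol starts with Defa (29 alpha-defensins) or Defb (42 beta-defensins), out of 20665 autosomal protein-coding genes. Membership was decided by symbol alone, although the family was picked for study with earlier results of these data known. The study mapped where histone H3 is trimethylated on lysine 9 (H3K9me3, a modification of heterochromatin), using ChIP-seq on male germ cells isolated from testes of mice with the Mvh-Venus transgene, a fluorescent reporter of germ cells. The stages were E13.5 and E16.5 before birth and P0 and P3 (postnatal days 0 and 3) after it, and the animals were Morc1 (+/-), here het, or Morc1 (-/-), here KO. Morc1 is a germ cell ATPase found in the nucleus, and the question of the series was the effect of its knockout on chromatin of gonocytes, the immature male germ cells. The labels list 32 samples in 16 groups of 2, and 16 of the samples used an antibody against histone H3 and entered no comparison. Each of the 8 H3K9me3 groups had 1 deposited peak list. Every group carried the transgene, no wild-type group was present, and no strain is named in the labels.

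Defensins are small, cysteine-rich secreted peptides that kill microbes by disrupting their membranes. In the mouse, alpha-defensins are made by Paneth cells of the small intestine, where the protease Mmp7 activates their precursors, while beta-defensins are made by epithelia of skin, airway and kidney and, in many cases, by the epididymis, where some coat sperm. Both families arose by repeated duplication and lie in tandem clusters. H3K9me3 is bound by heterochromatin proteins and is found over repeats and over many tandem gene families.

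For each gene, the window was the gene body and 5 kb on each side, and the measure was the length or the percent of that window lying inside peaks of a list. A gene was touched when at least 1 bp of its window lay in a peak. Since a group had 1 list, no spread between replicates could be given and no test was run between groups. Read depth is unknown, and every difference below is a difference between lists. The lists held 52630 to 93523 peaks, with fewest at E13.5, and peak numbers and covered lengths move with depth and calling threshold, whose part in the results was not tested. The lists hold no expression values, so neither the labelled cell type nor the loss of Morc1 could be checked from RNA. The 209.7 kb window of Morc1 had 2.0, 1.62, 5.39 and 3.52 kb in peaks in the het lists from E13.5 to P3, and 1.56, 0, 0 and 1.00 kb in the KO lists.

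The 71 genes formed 5 clusters when members within 500 kb of each other were joined. Coordinates are on GRCm38 (mm10). The chromosome 1 pair, Defb18 and Defb41, lay at chr1:18236402-18265138. The chromosome 2 cluster held 11 Defb genes at chr2:152459055-152623053. The proximal chromosome 8 cluster held 14 Defb genes at chr8:18974914-19497775. The distal chromosome 8 cluster held 39 genes, all 29 Defa and 10 Defb, at chr8:20892667-21948622. The chromosome 14 cluster held 5 Defb genes at chr14:62977524-63048606. Windows of 40 members overlapped that of another member, so neighbours share peaks, and sums below count each base once over 902 kb of merged windows.

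Promoter sequences are shown for 5 beta-defensins that stand for the range of promoter cover, chosen after their values were seen. Each is the 250 bases before the RefSeq gene start on GRCm38.p6, 5′ to 3′ on the gene's strand, with the dinucleotide CG in capitals. Defb41 (chr1:18265139-18265388, minus strand) and Defb38 (chr8:19026569-19026818, minus strand) overlapped peaks in all 8 lists, Defb43 (chr14:63011521-63011770, plus strand) in 7, Defb33 (chr8:20892417-20892666, plus strand) in 3, and Defb30 (chr14:63037847-63038096, minus strand) in none. The call needs at least 1 base of a 300-base window, these 250 and 50 after the start. Counted windows lay wholly in peaks, except Defb43 with 118 bases in E13.5 KO and 143 in P0 het.
Defb41: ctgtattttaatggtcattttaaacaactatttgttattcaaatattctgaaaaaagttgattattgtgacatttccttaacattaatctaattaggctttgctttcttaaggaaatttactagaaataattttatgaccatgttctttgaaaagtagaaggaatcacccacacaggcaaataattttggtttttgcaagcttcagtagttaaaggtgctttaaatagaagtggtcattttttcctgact
Defb38: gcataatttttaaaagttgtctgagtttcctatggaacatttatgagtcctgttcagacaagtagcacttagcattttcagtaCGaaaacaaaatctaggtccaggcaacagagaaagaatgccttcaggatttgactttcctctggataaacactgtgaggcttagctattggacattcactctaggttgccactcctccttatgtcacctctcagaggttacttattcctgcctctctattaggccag
Defb43: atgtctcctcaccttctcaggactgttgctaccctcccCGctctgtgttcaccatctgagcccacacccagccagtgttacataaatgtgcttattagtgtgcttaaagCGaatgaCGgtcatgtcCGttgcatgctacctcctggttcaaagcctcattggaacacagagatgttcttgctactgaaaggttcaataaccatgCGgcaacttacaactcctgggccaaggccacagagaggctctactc
Defb33: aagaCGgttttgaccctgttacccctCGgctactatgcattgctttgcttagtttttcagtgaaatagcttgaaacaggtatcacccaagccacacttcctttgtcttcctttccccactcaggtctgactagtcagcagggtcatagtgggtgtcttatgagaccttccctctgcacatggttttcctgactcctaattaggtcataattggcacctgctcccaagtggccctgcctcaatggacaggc
Defb30: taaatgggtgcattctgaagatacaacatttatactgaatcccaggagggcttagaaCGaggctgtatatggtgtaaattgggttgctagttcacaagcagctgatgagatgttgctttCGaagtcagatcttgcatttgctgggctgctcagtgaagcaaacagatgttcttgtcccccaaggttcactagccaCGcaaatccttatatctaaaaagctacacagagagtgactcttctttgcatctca

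Many alpha-defensins have a near copy, as the promoters of Defa21 (chr8:21025295-21025544, plus strand) and Defa2 (chr8:21378267-21378516, plus strand) show. Several other Defa genes lie between these 2 genes, and capitals mark the 5 bases of 250 at which they differ. The same 250 bases of Defa22 are identical to those of Defa21. Of the 120 pairs of Defa promoters, compared position by position without gaps, 11 differed at 5 or fewer of these bases, 5 of them at none, and the median pair differed at 180. A count without gaps is raised by any inserted or deleted base, so a high count does not show that promoters are unrelated. Defa2 and Defa32 differed at 180 bases by this count, yet their longer windows, described next, were 98.7% identical when aligned with gaps.
Defa21: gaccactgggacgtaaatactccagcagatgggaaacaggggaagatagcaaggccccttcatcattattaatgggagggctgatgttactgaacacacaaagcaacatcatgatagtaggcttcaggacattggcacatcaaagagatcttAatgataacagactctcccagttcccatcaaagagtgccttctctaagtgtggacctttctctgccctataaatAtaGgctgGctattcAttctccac
Defa2: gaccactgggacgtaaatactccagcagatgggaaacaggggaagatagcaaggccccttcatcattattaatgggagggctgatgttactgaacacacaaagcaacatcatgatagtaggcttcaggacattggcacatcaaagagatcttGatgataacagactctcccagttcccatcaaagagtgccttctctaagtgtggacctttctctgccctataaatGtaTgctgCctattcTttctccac

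RefSeq promoter entries were matched by symbol for 45 of the 71 members, 16 Defa and 29 Defb, with 46 windows in all because Defb21 has 2. Over the full windows of 300 bases (250 before and 50 after the start), 13 of 16 Defa promoters were at least 90% identical to the promoter of another member, and 5 pairs were 100% identical. Those pairs were Defa21 and Defa22, Defa23 and Defa31, Defa2 and Defa20, Defa36 and Defa37, and Defa42 and Defa43. The exceptions were Defa30, Defa41 and Defa28, at 74.3%, 82.6% and 58.7% to their closest relative. None of the 30 Defb windows reached 90%, and the most alike pair was Defb3 and Defb8 at 87.8%. The median member promoter held 1 CG, counted as the letters CG, which read the same on both strands, against 14 over 20085 promoter windows of autosomal protein-coding genes. Of the member windows, 15.2% (7 of 46) held no CG, against 4.40% of all promoters.

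The alpha-defensins were almost bare of H3K9me3 calls at every stage and in both genotypes. Of 29 Defa genes, 28 (96.6%) had no base of their window in a peak in any of the 8 lists, against 29.8% of all genes. Defa windows are shorter, with a median of 11.0 kb against 27.5 kb over all genes. The exception was Defa30, with 1 peak of the shortest length, 1.00 kb, at chr8:21136325-21137325 in the P0 het list. No Defa gene body was in a peak in any list. For a single list, 0 of 29 genes touched has a 95% Wilson interval that reaches 11.7%, which covers counting error only and treats neighbouring genes as independent. Over all genes, 39.8% to 53.3% were touched per list.

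The whole interval from Defa21 to Defa24, chr8:21025545-21735471, 709.9 kb long, held 0 to 2 peaks per list. At E13.5 it held no peak in either genotype. At E16.5 it held 1 peak of 1.00 kb in het and none in KO. At P0 it held 2 peaks covering 3.73 kb in het and 1 peak of 2.83 kb in KO, and at P3 none in het and 1 of 1.92 kb in KO. The covered share was at most 0.526%. Apart from the peak at Defa30, all calls in the interval fell at 1 place between Defa32 and Defa37, at chr8:21548162-21550895 in the P0 het list, and that place was called in 4 of the 8 lists.

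**Figure D1:**
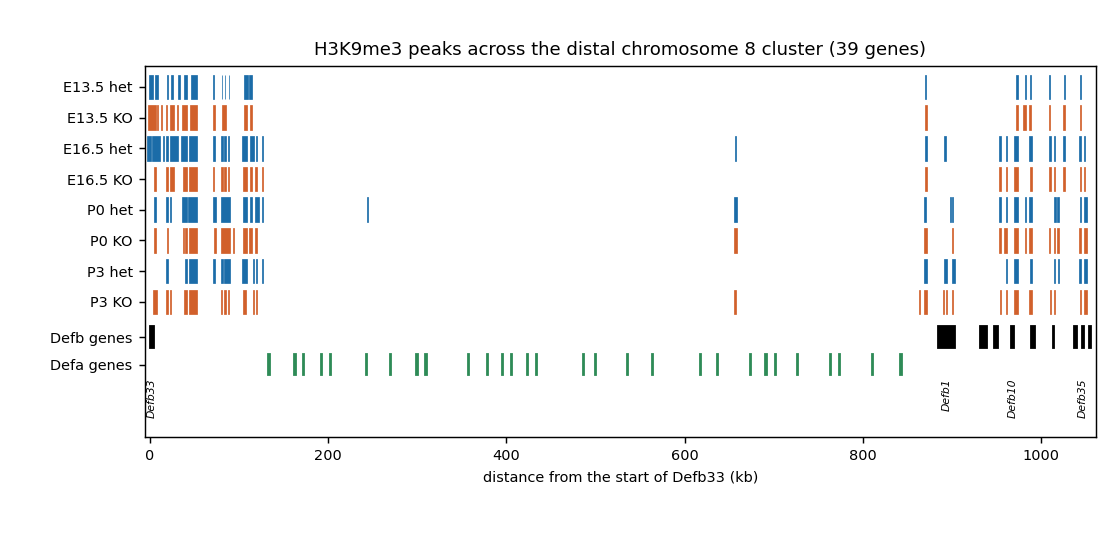
Peaks of the 8 lists (rows; blue het, orange KO) across the distal chromosome 8 cluster, by distance in kb from the start of Defb33, with Defb genes in black, Defa genes in green and 4 Defb genes named. Peaks lie between Defb33 and the first Defa gene and among the Defb genes at the right, and the 709.9 kb of Defa genes between hold 0 to 2 peaks per list.

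Peaks lay far from most Defa genes. The median distance from a Defa gene body to the nearest peak was 184, 95.5, 57.8 and 177 kb in the het lists in order of stage, and 184, 179, 94.7 and 91.3 kb in the KO lists. For the 42 Defb genes the same median was 4.73, 1.76, 0.465 and 3.18 kb in het and 3.76, 2.11, 0.126 and 0.750 kb in KO. Over all genes it was 3.67 to 11.3 kb. Within the same distal cluster, the windows of the 10 Defb genes were covered by 8.92% (E13.5 het) to 21.3% (E16.5 het). Per list, 6 to 9 of the 10 were touched, against 39.8% to 53.3% of all genes. Defb33 lies apart from the other 9, on the far side of the Defa genes. Without it, cover was 4.09% (het) and 4.69% (KO) at E13.5, against 3.59% and 4.26% over all genes. In the later lists it was 11.4% to 17.1%, against 5.58% to 8.07%. Reads from near-identical copies cannot always be placed, the handling of such reads is not given in the sources used here, and its part in the absence of calls over the Defa genes was not tested.

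Over both families together, a smaller share of genes was touched than among all autosomal genes in every list, while a larger share of bases was covered. At E13.5, 21 members (29.6%) were touched in het and 22 (31.0%) in KO, against 39.8% and 44.6% of all genes. The counts at E16.5 were 30 (42.3%) in het and 29 (40.8%) in KO, against 44.3% and 43.2%. They were 34 (47.9%) and 33 (46.5%) at P0, against 48.1% and 53.3%. At P3 they were 23 (32.4%) in het and 32 (45.1%) in KO, against 50.7% and 53.2%. Member windows are shorter than those of other genes, with a median of 11.9 kb against 27.5 kb. Gene bodies alone were touched in 10 (E13.5 KO) to 21 (P0 KO) members. The median member had 0% of its window covered in every list, and the median over all genes was 0% to 1.95%.

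The share of merged member windows inside peaks was 9.82%, 14.5%, 14.6% and 11.9% in het, in order of stage, and 10%, 12.5%, 16.53% and 14.9% in KO. Over all genes it was 3.59%, 6.07%, 6.57% and 6.87% in het and 4.26%, 5.58%, 7.65% and 8.07% in KO. Apart from the 1.00 kb at Defa30, all member cover lay on Defb genes, of which 50% to 78.6% were touched per list, against 39.8% to 53.3% of all genes. Peaks in member windows had a median length of 2130 bp (P0 het) to 3508 bp (P3 het), against 1858 to 2575 bp for all autosomal peaks. The member median was the shorter one in E16.5 KO (2287 against 2366 bp) and P0 het (2130 against 2482 bp), and the longer one in the other lists. Long peaks are more likely to meet a window.

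Calls divided the members into constant, absent and changing ones. Touched in all 8 lists were 16 of 71 members (22.5%), against 27.0% of all genes. All 16 were Defb genes, 38.1% of the 42 in that family. They were Defb41 on chromosome 1, Defb36 and Defb25 on chromosome 2, Defb40, Defb38, Defb39, Defb14, Defb4, Defb8 and Defb7 in the proximal chromosome 8 cluster, Defb10, Defb9, Defb11, Defb15 and Defb35 in the distal one, and Defb43 on chromosome 14. Touched in none were 33 (46.5%), against 29.8% of all genes, and these were the 28 Defa genes and Defb22, Defb37, Defb50, Defb30 and Defb42. Defb22 encodes a coat protein of sperm. The other 21 Defb genes and Defa30 were touched in some lists.

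**Figure D2:**
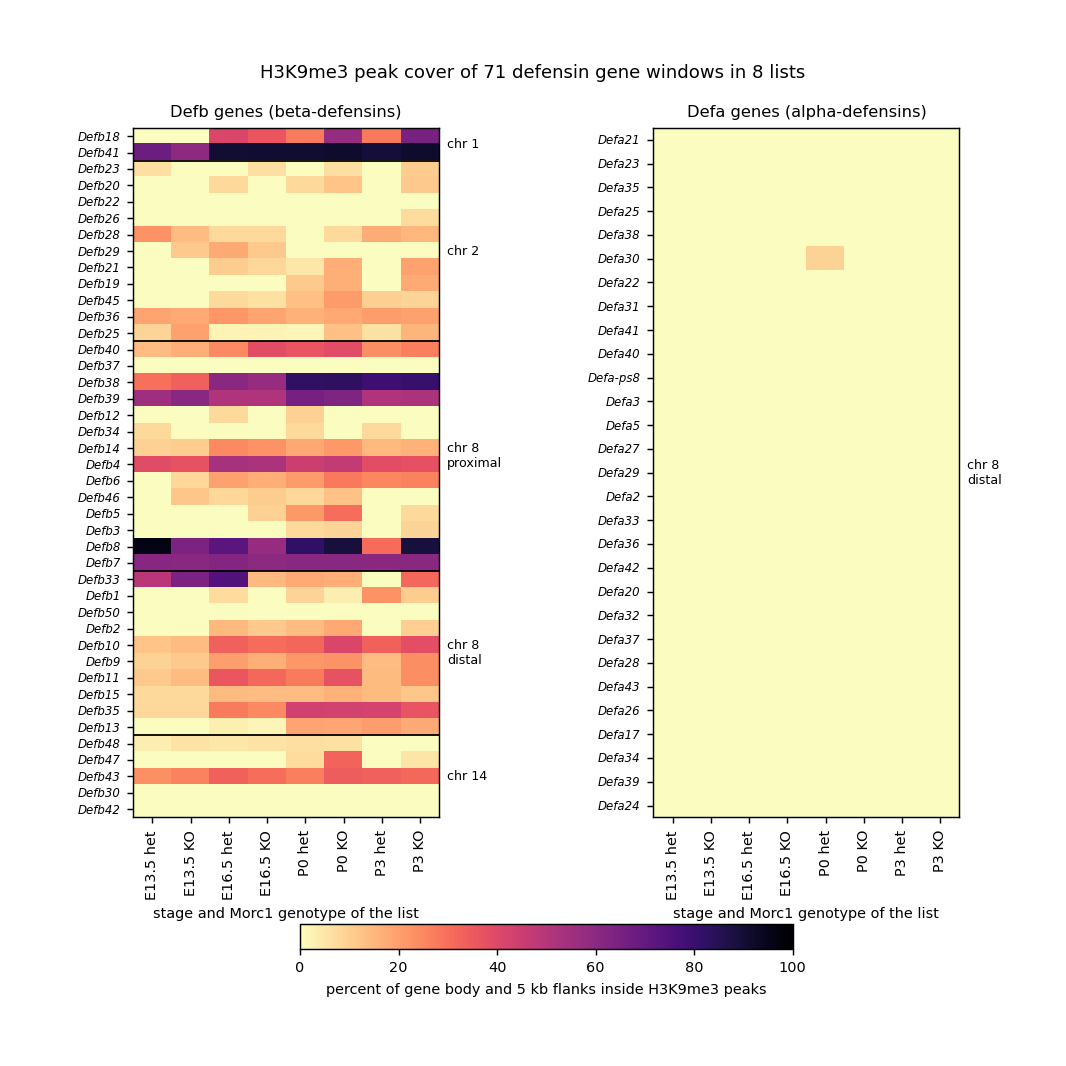
Percent of each gene's body and 5 kb flanks inside H3K9me3 peaks (colour, 0 to 100%) in the 8 lists (columns), for 42 Defb genes grouped by cluster and 29 Defa genes. Defb41, Defb39 and Defb7 are at or above 50% in every list, and the Defa panel is empty but for Defa30 at 9.14% in the P0 het list.

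Windows with at least 50% inside peaks were found in 4 to 7 members per list. A peak of a given length fills more of a short window, and member windows had a median of 11.9 kb against 27.5 kb over all genes. Their number was 4 (5.63%) in E13.5 het and 5 (7.04%) in E13.5 KO, against 2.04% and 2.34% of all genes. It was 7 (9.86%) and 6 (8.45%) at E16.5, against 3.16% and 3.02%, and 5 (7.04%) and 6 (8.45%) at P0, against 2.89% and 3.13%. At P3 it was 4 (5.63%) and 6 (8.45%), against 2.29% and 2.79%. Defb41, Defb39 and Defb7 were in this class in all 8 lists, Defb38 in the 6 lists from E16.5 on, and Defb8 in 7 lists.

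The chromosome 1 pair was the most covered cluster. Its windows were inside peaks over 46.3%, 75.0%, 71% and 70% of their length in the het lists from E13.5 to P3, and over 40.8%, 73.6%, 81.0% and 83.3% in the KO lists. Defb41, an epididymal beta-defensin, had 67.6% and 59.5% of its window covered at E13.5 and 89.4% to 91.7% in the 6 later lists. Defb18 had no call at E13.5 in either genotype. In the later stages, its window was covered over 41.3%, 27.7% and 27.8% in het and over 36.0%, 57.6% and 65.1% in KO.

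At Defb41 the difference between E13.5 and later stages was one of joined peaks. The E13.5 lists held 3 (het) and 4 (KO) peaks in its window, with a gap inside the gene from chr1:18258518 to chr1:18264237 in het. In the 6 later lists a single peak of 31.8 to 33.4 kb ran from inside the gene past its promoter, at chr1:18255022-18288364 in E16.5 het. The peak on the far side, which reaches towards Defb18, was 9.07 kb in E13.5 het and 11.2 to 15.5 kb from E16.5 on. The stretch between these peaks, from chr1:18252871 to chr1:18254803 inside Defb41, lay in no peak of any list.

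**Figure D3:**
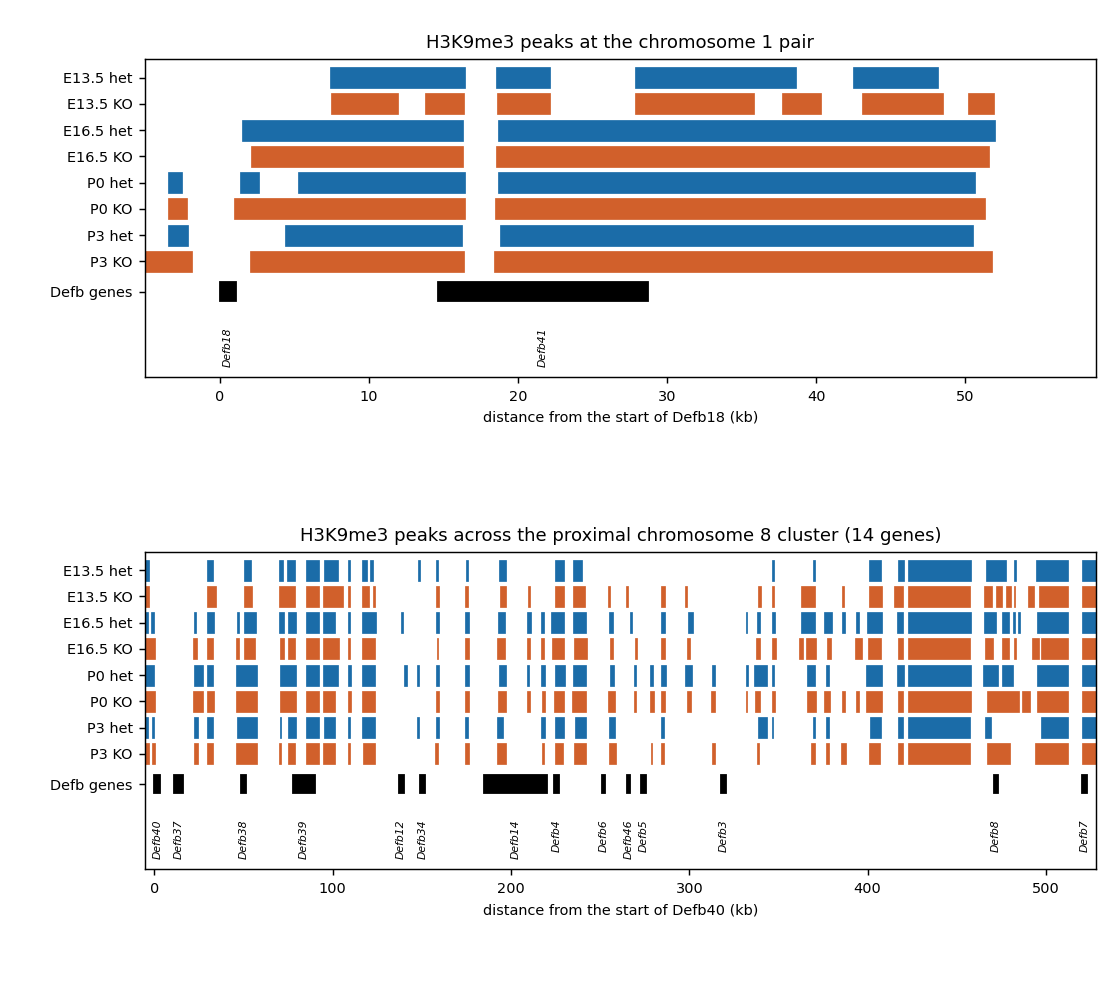
Peaks of the 8 lists (rows; blue het, orange KO) at the chromosome 1 pair, top, and across the 14 genes of the proximal chromosome 8 cluster, bottom, by distance in kb from the start of Defb18 and Defb40, with gene bodies in black. On chromosome 1 the separate E13.5 peaks give way to a single peak of 31.8 to 33.4 kb in the later lists, and on chromosome 8 many peaks recur at the same place in all rows.

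The proximal chromosome 8 cluster came next, with 22.6%, 28.2%, 33.4% and 24.6% of its windows inside peaks in het, in order of stage, and 22.5%, 27.2%, 34.0% and 29.3% in KO. Many of these calls did not move: of the bases called in any list in this cluster, 38.3% were called in all 8, against 27.2% over all members and 14.3% over all genes. Defb7 had 60.0% to 61.8% of its window covered in every list, by a peak that began near the gene's lower-coordinate end (chr8:19495027 in E13.5 het) and ran 10.5 to 13.9 kb. Defb39 had 51.2% to 65.3% and Defb4, an inducible epithelial beta-defensin, 37.1% to 53.6%. Defb38 had 29.9%, 60.2%, 82.8% and 79.1% in het, in order of stage, and 33.5%, 57.8%, 83.1% and 80.7% in KO. In its window, separate peaks at E16.5 had become a single peak of 11.2 to 11.9 kb at P0 and P3.

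Cover of the other genes of the proximal cluster ranged from none in any list to 30.5% to 96.1% at Defb8, and Defb40 had 13.8% to 38.7%. Defb37 was at 0 in all 8 lists, although its neighbours Defb40 and Defb38 were always touched. Defb12 had 1.00 kb in E16.5 het and 1.26 kb in P0 het and none elsewhere. Defb3, an inducible epithelial beta-defensin, had calls only at P0 (0.936 kb het, 1.08 kb KO) and in P3 KO (1.07 kb). Defb14, another inducible member, had 4.30, 11.0, 8.21 and 6.60 kb of a 45.1 kb window in the het lists, and 4.59, 10.3, 9.51 and 7.30 kb in the KO lists. Part of its cover is a peak that it shares with Defb4. Spag11a and Spag11b, epididymal genes that encode defensin-like peptides inside the same cluster, were not touched in any list.

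The chromosome 2 cluster had low cover and few constant calls. Its windows were inside peaks over 6.43%, 7.24%, 5.15% and 5.14% in het, in order of stage, and over 6.43%, 6.09%, 10% and 10.5% in KO. Of the bases called in any list, 5.97% were called in all 8. Defb36 led it, with 16.3% to 21.6% of its window in every list. Defb19, which is expressed in testis, had no call at E13.5, E16.5 or P3 het, while it had 1.59 kb (het) and 2.35 kb (KO) at P0, and 2.54 kb in P3 KO.

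On chromosome 14, cover was 5.85%, 8.35%, 9.11% and 7.31% in het, in order of stage, and 6.95%, 7.90%, 17.1% and 8.26% in KO. In every list but P0 KO, most of it was a single peak upstream of Defb43, at chr14:63007545-63011332 in E13.5 het, which was called in all 8 lists with 3.79 to 5.61 kb in the window. In P0 KO the window of Defb43 held 5.61 of the 12.8 kb of the cluster, and that of Defb47 held 6.16 kb. Defb30 and Defb42, on the far side of Defb43, were at 0 throughout. Defb47 had no call before P0. At P0 it had 1.32 kb in het against that length in KO, and at P3 none against 1.00 kb.

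**Figure D4:**
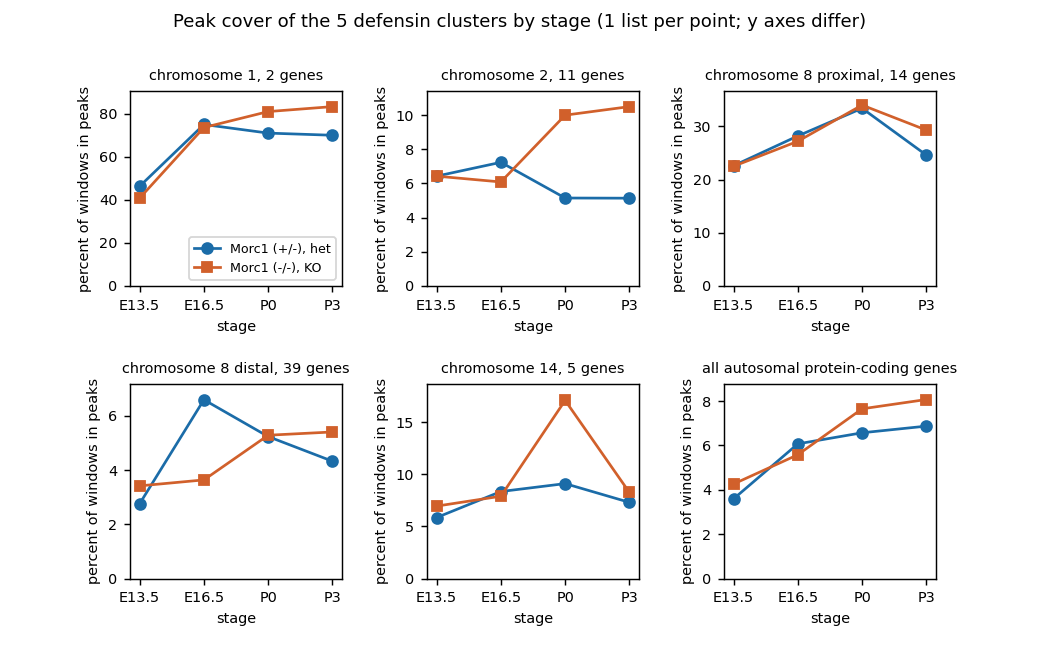
Percent of merged windows inside peaks (y axes differ) by stage for each of the 5 clusters and for all autosomal protein-coding genes, with blue circles for het and orange squares for KO and 1 list per point. At P3 the KO point is above the het point in all 6 panels, and at E13.5 the chromosome 1 pair is higher in het (46.3% against 40.8%).

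Between E13.5 and E16.5 calls spread. A gene was counted as gaining or losing calls when its covered length changed by at least 1 kb, the length of the shortest peaks (1001 bp, also the most common length, with 1 shorter peak on the autosomes of the 8 lists). In het, 21 members gained (29.6%, against 27.7% of all genes) and 4 lost (5.63%, against 9.50%). In KO, 14 gained (19.7%, against 22.0%) and 3 lost (4.23%, against 15.4%). All of these were Defb genes. Over all 71 members the shares of gains were near those of all genes, but 28 Defa genes had no call in any list. Of the 42 Defb genes, 21 gained in het and 14 in KO, so shares over Defb genes alone are higher. The same applies to the shares of the 71 members by the 1 kb rule below. Gains in both genotypes were counted for 12 members (16.9%, against 19.2%) and losses in both for none (against 6.87%).

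Ranked by the smaller of the 2 gains, the first of these 12 were Defb14 (6.71 kb in het, 5.72 kb in KO), Defb41 (5.51 and 7.57 kb), Defb18 (4.57 and 3.98 kb), Defb38 (3.99 and 3.19 kb) and Defb10 (2.79 and 2.21 kb). Defb10 had 1.60 and 1.80 kb at E13.5 and 4.01 to 5.41 kb in the later lists. The others were Defb21, Defb40, Defb4, Defb6, Defb2, Defb11 and Defb35. Defb39, Defb28, Defb8 and Defb25 were lower at E16.5 than at E13.5 in both genotypes, without reaching 1 kb in both. The changes in het and KO were -0.898 and -2.13 kb for Defb39, -2.0 and -0.817 kb for Defb28, -2.82 and -0.746 kb for Defb8, and -0.710 and -1.9 kb for Defb25.

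From E16.5 to P0, het had 11 gains (15.5%, against 21.6%) and 7 losses (9.86%, against 14.7%). KO had 17 gains (23.9%, against 32.1%) and 1 loss (1.41%, against 8.05%), at Defb29. Defb13, which lies at the end of the distal cluster, had none at E13.5, 0.334 (het) and 0.230 kb (KO) at E16.5, and 2.11 to 2.46 kb in the P0 and P3 lists, with het and KO close at each stage. From P0 to P3, het had 3 gains (4.23%, against 21.7%) and 16 losses (22.5%, against 14.8%). KO had 4 gains (5.63%, against 22.0%) and 11 losses (15.5%, against 16.1%). Shares of gains over the last interval were thus below those of all genes in both genotypes.

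The difference between genotypes changed sign with stage. Covered length over all members was 88.6, 131, 132 and 108 kb in the het lists, in order of stage, and 90.2, 113, 149 and 135 kb in the KO lists. The ratio of KO to het was 1.02, 0.863, 1.13 and 1.25, against 1.19, 0.919, 1.17 and 1.17 over all autosomal genes, which changed sign at the same stages. KO lists held more peaks than het lists at E13.5, P0 and P3 and fewer at E16.5. At E13.5 the member difference of -1.58 kb turned to 0.655 kb without Defb33, and its sign also turned with peaks of at least 2 kb alone (0.565 percentage points, from -0.175). Peaks of the 2 genotypes overlapped in member windows about as they did over the autosomes, with Jaccard indices (bases in both lists over bases in either) of 0.719, 0.787, 0.770 and 0.661 from E13.5 to P3, against 0.715, 0.799, 0.702 and 0.669.

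By the 1 kb rule, 5 members were higher in het at E13.5 (7.04%, against 5.16% of all genes) and 6 in KO (8.45%, against 18.7%). At E16.5, 5 were higher in het (7.04%, against 11.7%) and 3 in KO (4.23%, against 4.48%). At P0 the counts were 4 in het (5.63%, against 7.13%) and 12 in KO (16.9%, against 25.2%). At P3 they were 2 in het (2.82%, against 8.47%) and 14 in KO (19.7%, against 23.9%). At every stage the genotype with more members called was also the one with more of all genes called, by 1 member at E13.5. Over all 71 members, no share higher in KO exceeded the share among all genes. Members higher in KO were all Defb genes, 6, 3, 12 and 14 of 42 from E13.5 to P3. The 71 include 28 Defa genes without a call in any list, so shares over Defb genes alone are higher. Member windows are also shorter, with a median of 11.9 kb against 27.5 kb, and the 1 kb rule takes no account of window length.

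**Figure D5:**
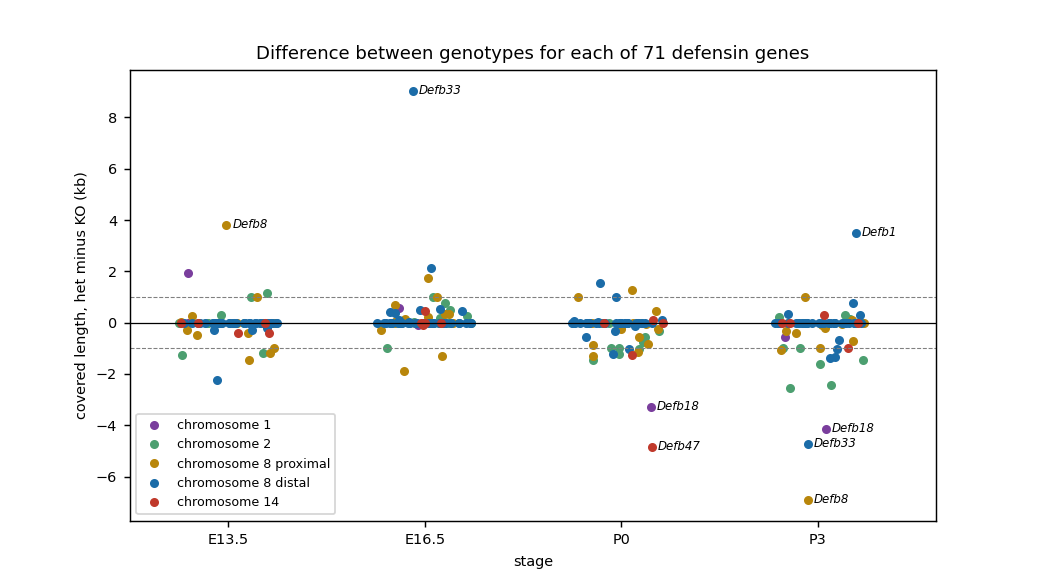
Covered length in het minus KO (kb) for each of the 71 genes at each stage, coloured by cluster, with dashed lines at 1 kb and genes beyond 3 kb named; points are spread sideways for display only. Most points sit at or near 0, Defb33 reaches 9.04 kb at E16.5, and Defb8 and Defb18 lie at -6.92 and -4.13 kb at P3.

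After birth, 6 members were higher in KO by at least 1 kb at both P0 and P3 (8.45%, against 14.2% of all genes): Defb18, Defb23, Defb21, Defb5, Defb11 and Defb47. By the smaller of the 2 differences Defb18 ranked first, with 3.07 kb in het against 6.38 kb in KO at P0 and 3.08 against 7.21 kb at P3. At P0 the KO cover came from a peak that reached down to chr1:18237360, inside the gene, where the het list had 2 separate peaks. Defb21 had 0.603 kb (het) and 2.05 kb (KO) at P0, then 0 and 2.41 kb. Defb11 had 3.05 and 4.08 kb, then 1.56 and 2.60 kb. Defb23 had 0 and 1.00 kb, then 0 and 1.60 kb. Defb5 had 2.83 and 3.98 kb, then 0 and 1.00 kb. For Defb23 at P0 and for Defb5 and Defb47 at P3, the whole KO cover was 1 peak of the shortest length.

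Higher in het at both P0 and P3 were 2 members (2.82%, against 3.21% of all genes), Defb1 and Defb34. Defb1, the constitutive epithelial beta-defensin, had no call at E13.5. In the 3 later stages it had 2.12, 2.55 and 6.49 kb in het and 0, 1.00 and 3.0 kb in KO. Its cover at P3 het came from peaks at chr8:21783106-21786676 and chr8:21792734-21795655, the second of which crosses an end of the gene, and the KO list had 3 peaks of 1.00 kb at or beside these places. Defb34 had 1.00 kb in het at E13.5, P0 and P3 and 0 in every KO list, a single shortest peak each time. Defb35 and Defb13 were also above KO at both stages, by 0.0480 and 0.753 kb and by 0.0310 and 0.350 kb.

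Defb33 and Defb8 had the widest swings. Defb33 had 7.40, 11.2, 2.69 and 0 kb in het, in order of stage, and 9.64, 2.18, 2.57 and 4.74 kb in KO. At E13.5 its promoter was in a peak in both genotypes, at E16.5 in het alone, and later in neither. It made up 9.04 of the 17.9 kb by which het exceeded KO over all members at E16.5. Defb8 had 11.4, 8.55, 9.72 and 3.61 kb in het and 7.56, 6.82, 10.5 and 10.5 kb in KO, so it was higher in het at the embryonic stages and in KO after birth. The P3 difference came from a peak of 12.7 kb in KO, at chr8:19442074-19454815, where het had 3.66 kb, at chr8:19440720-19444380.

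Clusters differed in where genotypes parted. On chromosome 2, KO cover was equal to het at E13.5 (8.43 kb each) and 1.95 and 2.05 times het at P0 and P3. On chromosome 14 the ratio was 1.88 at P0, mainly from Defb47, and 1.13 at P3, where the difference of -0.945 percentage points became 1.31 without flanks and 0.399 with peaks of at least 2 kb or with equal peak numbers. On chromosome 1 it was 0.881, 0.982, 1.14 and 1.19 in order of stage. In the proximal chromosome 8 cluster it was 0.963 to 1.02 until P0 and 1.19 at P3, and in the distal cluster 1.24, 0.552, 1.01 and 1.25. Much of the distal difference at E16.5 and P3 lay at Defb33. The other 9 distal Defb genes had 5.12, 18.7, 20.1 and 19.6 kb in het, in order of stage, and 5.87, 14.3, 21.4 and 19.8 kb in KO. The distal P3 difference of -1.08 percentage points became 0.767 over gene bodies without flanks. Whether any of these differs from the ratio over all genes cannot be tested with 1 list per group.

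Among the 45 members with a promoter entry, promoter windows overlapped peaks more often than promoters at large. Entries existed for 29 of 42 Defb but only 16 of 29 Defa genes, so these shares lean towards the Defb genes. Of 46 windows, 7 (15.2%) overlapped a peak in E13.5 het, against 4.09% of all 20085 promoter windows, and 9 (19.6%) in E13.5 KO, against 5.52%. Counts were 9 (19.6%) and 7 (15.2%) at E16.5, against 4.46% and 4.23%, and 9 (19.6%) and 10 (21.7%) at P0, against 4.60% and 5.19%. At P3 they were 6 (13.0%) and 9 (19.6%), against 4.12% and 4.91%. All belonged to Defb genes, and none of the 16 Defa promoters overlapped a peak. The promoters of Defb41, Defb38 and Defb39, shown above for the first 2, lay wholly in peaks in all 8 lists, and those of Defb7 and Defb43 overlapped peaks in 7. At Defb7 the overlap was 27 (P3 het) to 207 (E16.5 het) of 300 bases. Defb41 has no CG in its 300-base window, and Defb38 and Defb39 have 1 each.

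Genes that act with defensins were set beside them, from a list of 28 genes for antimicrobial proteins, processing enzymes, receptors and regulators. Of these, 27 were found by symbol and Pla2g2a was not. Touched in all 8 lists were 5 (Itln1, Ccr2, Nod2, Tcf4 and Spdef) and in none 5 (Ltf, Reg3g, Spag11a, Spag11b and Mc1r), against 27.0% and 29.8% of all genes. Mmp7, which activates alpha-defensin precursors, had no call at E13.5, and in the 3 later stages 1.51, 4.88 and 1.35 kb in het and 2.32, 5.19 and 3.30 kb in KO. Ccr6, a receptor for beta-defensins, also had none at E13.5 and 2.0 to 5.37 kb later. Reg3a, a C-type lectin gene, was higher in het at P0 (6.45 against 3.26 kb) and P3 (4.99 against 0 kb). Of the 27, 2 were higher in het and 6 in KO at P0 (7.13% and 25.2% of all genes), and 4 and 3 at P3 (8.47% and 23.9%).

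Other clustered families were set beside the defensins. Windows of 1104 olfactory receptor genes (Olfr) were inside peaks over 17.5% to 30.1% of their length per list, and those of 354 vomeronasal receptor genes (Vmn1r, Vmn2r) over 21.3% to 30.3%. Windows of 89 Serpin and Klk genes, which encode protease inhibitors and kallikrein proteases, were covered over 6.09% to 12.5%. Untouched in all 8 lists were 24.4% of Olfr, 39.8% of Vmn and 23.6% of Serpin and Klk genes, against 46.5% of defensins, most of them Defa genes. The Defb genes alone had 15.0% to 25.3% of their windows covered and 11.9% of genes untouched, against 29.8% of all genes untouched.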

How the data were processed

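H3K9me3 ChIP-seq peaks of 8 groups (4 stages, 2 Morc1 genotypes) were used as 8 peak lists. Per the file contents, the authors deposited 3 columns a peak, the chromosome and the start and end positions in bp, with no score, fold or p-value. The submitters' processing notes name bcl2fastq 2.20, cutadapt 1.18, Bowtie2 2.3.4.1, deepTools 3.5.0, HOMER 4.10 and build mm10, without roles. Peak settings, the control, the pooling of the 2 samples of a group, the handling of multi-mapping reads and read depth are not given in the sources used here.

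Lists were matched to groups by the stage and genotype they name. Overlapping peaks were merged, and their bases inside gene windows (RefSeq gene table, GRCm38, chromosomes 1 to 19, body and 5 kb flanks, 1-based) were summed with Python 3.11.15 and NumPy 2.4.6. Members within 500 kb formed a cluster. Calls used 1 bp (touched), 50% of a window and 1 kb (differences), and the same rules were run over all 20665 genes. Promoter windows of 300 bases came from RefSeq on GRCm38.p6, and identities are from global alignments in Biopython 1.88 (match 1, mismatch -1, gap opening -3, extension -0.5). The comparison of proteins planned in the design was not made. Intervals are 95% Wilson intervals. The overlap code was tested on simulated data.

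The rule on symbols uses no measured value, but the members and the gene lists were chosen with earlier results of these data known. All members could be named. Values in all lists are given for the highest and lowest member of each cluster, for up to 5 members per direction that differ between genotypes at both P0 and P3, and for up to 5 per direction that change from E13.5 to E16.5 in both genotypes, plus the pathway list and the nearest neighbours. Other members described by stage were chosen after their values were seen. Alternatives varied the flank, the peaks used, the call sizes and the cluster gap.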

Additional observations from a re-analysis of the deposited data

Results flagged for a closer look

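The sign of the het minus KO difference changed with stage for the members as a whole, for 4 clusters and for 5 single genes by at least 1 kb in each direction, with smaller changes of sign not counted, and the change of sign was not tested, since each genotype and stage has 1 list. Over all members the difference in covered length was -1.58, 17.9, -17.5 and -27.0 kb from E13.5 to P3. The chromosome 1 pair went from 1.95 kb at E13.5 to -3.51 and -4.68 kb after birth. The chromosome 2 cluster went from 1.51 kb at E16.5 to -6.42 and -7.08 kb after birth. The proximal chromosome 8 cluster went from 2.19 kb at E16.5 to -1.35 and -9.66 kb after birth. The distal chromosome 8 cluster had -2.99 and 13.4 kb at the embryonic stages and -4.92 kb at P3.

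Among single genes, Defb33 had -2.24 and 9.04 kb at the embryonic stages and -4.74 kb at P3. Defb8 was higher in het at E13.5 (3.81 kb) and E16.5 (1.74 kb) and lower at P3 (-6.92 kb). Defb23 had 1.00 kb at E13.5, then -1.0 kb at both of the next stages and -1.60 kb at P3. Defb20 had 1.00 kb at E16.5 and -1.45 kb at P3. Defb28 had 1.15 kb at E13.5 and -1.0 kb at P0. Values of 1.00 kb are the length of 1 peak of the shortest size.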

How the results depend on the processing

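Of 548 values recomputed for 116 results, 451 stayed within the limits set for their kind, 92 moved and 5 changed sign among differences of at least 1 kb. A further 7 changes of sign concerned differences under 1 kb. For percents covered and their differences, the limits came from 95% Wilson intervals that took genes as trials, with as few as 2 genes in a cluster. Such limits are wide, and staying within them does not show that a value changed little. On chromosome 2, cover of 5.14% in P3 het became 0.636% without flanks and still counted as within them. The percent of windows covered by all members moved beyond its limits under no alternative that was run. Those limits took the 71 genes as trials, so this does not show that the percent held steady. Cluster gaps of 200 kb and 1 Mb gave the same 5 clusters. No paired analysis was possible because the lists carry no replicate number and no result comes from a test. With 1 list per group and depth unknown, small differences cannot be set against an error. A smaller window or a larger minimum leaves fewer bases by construction.

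The E13.5 difference over all members (het minus KO, -0.175 percentage points) became 0.565 with peaks of at least 2 kb, 0.269 with equal peak numbers (the 52630 longest of each list) and 0.0739 without Defb33, the last chosen after seeing the data. The distal chromosome 8 difference at P3 became 0.767 without flanks and 0.372 with equal peak numbers. Of the smaller differences, without flanks that of chromosome 1 at E16.5 went from 1.37 to -0.696, that of chromosome 14 at P3 from -0.945 to 1.31, and the distal one at P0 from -0.0483 to 2.11. With 10 kb flanks the distal one became 0.03 and the proximal one at E13.5 went from 0.136 to -2.95, and with peaks of at least 2 kb or equal numbers that of chromosome 14 at P3 became 0.399. For these and the values below the cause was not tested beyond the change in bases or peaks.

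Without flanks, touched members were 12 and 10 (het, KO) at E13.5, 16 and 12 at E16.5, 14 and 21 at P0, and 12 and 18 at P3. Cover of the chromosome 14 cluster was then 0 in both E13.5 lists and P0 het, 0.240% in E16.5 KO and 0.546% in P3 KO, 2.17% in E16.5 het and 1.86% in P3 het, and that of chromosome 2 was 0.721% in E16.5 KO and 0.636% in P3 het. Members higher in het were 0 at E13.5, 1 at P0 and 1 at P3, and higher in KO 1, 0, 1 and 4 from E13.5 to P3. Gains in het were 5, 2 and 1 over the 3 intervals and losses 0, 3 and 3, and in KO gains were 3 and 7 over the first 2 and losses 0 and 3 over the last 2.

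With 10 kb flanks, Defa genes touched were 1 in E16.5 het, E16.5 KO and P3 het and 2 in P0 het, and without flanks, with peaks of at least 2 kb or with equal numbers 0 in P0 het. KO gains were 23 and 28 and losses 5 and 2 over the first 2 intervals, and het losses 2 over the first.

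With peaks of at least 2 kb, touched members were 13 (E13.5 het), 12 (E13.5 KO), 18 (E16.5 KO), 19 (P0 het) and 21 (P3 KO). Members higher in het were 3, 1 and 1 at E13.5, P0 and P3, and higher in KO 3, 1 and 7 at E13.5, E16.5 and P3. Het losses were 2 and 6 over the first and last interval, het gains 6 over the second, KO losses 0 over the second and KO gains 2 over the last. Equal peak numbers gave 19 touched in P0 het and 21 in P3 KO, 1 higher in het at P0, 1 and 7 higher in KO at E16.5 and P3, het gains of 5 over the second and losses of 6 over the last interval, KO losses of 6 over the first and gains of 2 over the last. Promoters under a peak in P0 KO were 6 under both.

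With a difference of 2 kb, members higher in het were 1, 2, 0 and 1 from E13.5 to P3 and higher in KO 1, 0, 2 and 5. Het gains were 11 and 3 over the first 2 intervals and losses 1, 3 and 4, KO gains 7, 8 and 2, and KO losses 0 and 4 over the last 2. With 500 bp, 9 were higher in het at E16.5, het gains were 5 over the last interval, and KO losses 5 and 3 over the first 2.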

Other observations

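Genes beside and between the defensins, chosen by position, differed from gene to gene. In the distal chromosome 8 cluster, AY761185 had 6.70 to 6.97 kb of its 11.1 kb window in peaks in all 8 lists, with het and KO close at each stage. Gm15313, in the same cluster, had none in any list. Gm15056 and Gm6040, whose RefSeq synonyms are beta-defensin names, lie near Defb33 and share its peaks in part. Gm15056 had 3.65, 8.0, 2.69 and 0 kb in het, in order of stage, and 6.24, 2.18, 2.57 and 4.74 kb in KO. Gm6040 had 7.76, 18.8, 5.76 and 1.67 kb in het and 11.8, 8.53, 3.57 and 6.94 kb in KO.

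Outside the clusters, Crisp4, an epididymal gene to the left of the chromosome 1 pair, had 1.84 (het) and 2.05 kb (KO) at E13.5 and 7.96 to 13.1 kb in the later lists. Tfap2d, to the right of that pair, had no call at E13.5, and in the 3 later stages 3.0, 5.44 and 3.99 kb in het and 2.81, 1.00 and 0 kb in KO. Xkr5, to the left of the proximal chromosome 8 cluster, had 1.25 kb in E16.5 het and none elsewhere. Rem1, to the right of the chromosome 2 cluster, had 1.51 to 2.98 kb in every list. These genes were not compared with all genes.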
